A study of Mus musculus with 96 samples.

Results

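Medium spiny neurons, also called striatal projection neurons, make up most of the striatum, and 9 genes that are strongly expressed in them were followed through 3 brain regions of 2 mouse strains. The genes, named in a list drawn up with earlier results of these data known, were Ppp1r1b, Pde10a, Pde1b, Rgs9, Rasd2, Adcy5, Gnal, Rarb and Actn2. Each was read from the transcript cluster that carries its symbol alone, and each had 1 such cluster, so that 9 of the 28310 transcript clusters kept in the study, or of the 21207 with a single gene symbol, were members. The samples came from 16 male mice aged 14 weeks and housed singly. Of these, 8 belonged to the reference strain C57BL/6J and as many to NOD/ShiLtJ, which is prone to autoimmune diabetes. In each strain, 4 mice were injected intraperitoneally with 4 mg/kg clozapine, an antipsychotic drug that blocks dopamine and serotonin receptors, and 4 with vehicle (0.9% saline), and all were killed 3 hours afterwards. The cerebellum was discarded. A randomly chosen hemisphere of each brain was parted into forebrain and hindbrain, and the other, left intact with its olfactory bulb, is called whole brain. The study describes its hindbrain as holding the substantia nigra and the hypothalamus, and thalamic and hypothalamic genes were higher in it, as given below. The names forebrain and hindbrain therefore stand for the dissected pieces. No sample was a dissected striatum, which lies inside the forebrain sample. The 48 RNA samples were hybridized to Affymetrix mouse gene arrays of the 1.1ST peg format and again to the 1.0ST cartridge format, and all values are log2 intensities after robust multiarray average (RMA) normalization, from the 1.1ST arrays unless the other format is named.

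Medium spiny neurons are inhibitory neurons that receive cortical and thalamic excitation together with dopamine from the midbrain, and they send their axons to the pallidum and the midbrain. One class carries the dopamine receptor Drd1 and signals to raise cyclic AMP, and the other carries Drd2 and signals to lower it. The members are parts of this signalling: Gnal encodes the G protein alpha subunit that couples receptors to adenylyl cyclase, Adcy5 the main striatal adenylyl cyclase, Pde10a and Pde1b phosphodiesterases that degrade cyclic nucleotides, Ppp1r1b the protein DARPP-32, which inhibits protein phosphatase 1 once protein kinase A has phosphorylated it, Rgs9 a protein that speeds the switching off of inhibitory G proteins, and Rasd2 a small GTPase also known as Rhes. Rarb encodes a retinoic acid receptor active in striatal development, and Actn2 an actin cross-linking protein of dendritic spines and of muscle. None of these genes is restricted to the striatum, and Gnal, for one, also serves the olfactory epithelium.

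On GRCm38.p6, as annotated by RefSeq, Ppp1r1b lies at chr11:98348406-98357796, Pde10a at chr17:8525187-8986648, Pde1b at chr15:103503034-103530056 and Rgs9 at chr11:109225348-109298181. Rasd2 lies at chr8:75213944-75224113, Adcy5 at chr16:35154494-35305743, Rarb at chr14:16430839-17082331 and Actn2 at chr13:12269426-12340732. The 9 genes, with Gnal, lie on 8 chromosomes, and Ppp1r1b and Rgs9, which share chromosome 11, are not neighbours.

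The promoter windows of 4 members are shown: Rarb for a repeat in it that few windows hold, Rgs9 and Pde10a as the pair most alike between forebrain samples, and Actn2 as the member with the largest regional difference. Each line gives 300 bases around an annotated transcription start, most of them upstream, 5′ to 3′ on the gene's strand, from RefSeq on GRCm38.p6. Capitals mark the repeat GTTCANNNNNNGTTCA in Rarb and the GC box GGGCGG, on either strand, in the other genes.
Rarb, chr14:16575427-16575726, minus strand: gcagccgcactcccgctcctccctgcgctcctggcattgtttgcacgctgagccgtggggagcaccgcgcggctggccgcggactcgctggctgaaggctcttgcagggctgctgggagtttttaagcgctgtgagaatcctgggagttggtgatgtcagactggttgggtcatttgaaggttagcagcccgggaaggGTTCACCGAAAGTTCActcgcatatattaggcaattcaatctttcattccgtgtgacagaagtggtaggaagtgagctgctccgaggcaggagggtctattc
Rgs9, chr11:109298132-109298431, minus strand: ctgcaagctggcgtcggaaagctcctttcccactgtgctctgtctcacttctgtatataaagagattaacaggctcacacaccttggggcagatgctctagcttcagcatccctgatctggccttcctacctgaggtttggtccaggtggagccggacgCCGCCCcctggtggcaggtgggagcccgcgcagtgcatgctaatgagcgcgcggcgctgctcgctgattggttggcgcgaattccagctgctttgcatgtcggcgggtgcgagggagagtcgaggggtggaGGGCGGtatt
Pde10a, chr17:8801495-8801794, plus strand: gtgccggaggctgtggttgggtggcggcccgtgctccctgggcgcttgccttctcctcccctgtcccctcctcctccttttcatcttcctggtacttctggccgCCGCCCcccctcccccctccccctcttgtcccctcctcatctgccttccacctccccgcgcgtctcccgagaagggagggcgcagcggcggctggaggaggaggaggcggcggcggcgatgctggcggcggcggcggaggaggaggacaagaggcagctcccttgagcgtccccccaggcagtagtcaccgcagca
Actn2, chr13:12340683-12340982, minus strand: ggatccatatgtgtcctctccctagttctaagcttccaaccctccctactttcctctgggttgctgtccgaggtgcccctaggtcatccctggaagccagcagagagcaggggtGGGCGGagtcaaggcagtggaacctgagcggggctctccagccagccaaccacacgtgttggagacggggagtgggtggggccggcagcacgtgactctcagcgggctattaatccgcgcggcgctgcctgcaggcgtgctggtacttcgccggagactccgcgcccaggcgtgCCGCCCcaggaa

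Promoter windows were at hand for 7 members in 10 windows (Pde1b with 3 and Pde10a with 2), and those of Ppp1r1b and Gnal were not used here. The repeat in the Rarb window, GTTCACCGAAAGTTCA, has the spacing of a retinoic acid response element and begins 52 bases before the start site. It was found in 25 of 32807 mouse promoter windows of the same length (0.0762%, both strands). The GC box was found in 6 of the 10 windows, in 5 of the 7 genes, against 35.6% of all windows. TATAAA was found in 2 of the 10 (1 each of Pde1b and Rgs9, against 13.6% of all windows), the nuclear receptor half-site AGGTCA in 1 (Actn2, against 16.3%), and the cyclic AMP response element TGACGTCA and its half-site TGACG in none (against 1.79% and 20.8%). The printed Pde10a window had a GC content of 71.3%, and the median over all windows was 52.7%. These matches describe the letters of the windows and were not related to the measurements.

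The deposited values of all arrays lay on a like scale, with array medians between 6.28 and 6.61 on 1.1ST arrays and between 8.14 and 8.23 on 1.0ST arrays. The 6.28 belonged to the forebrain of DD676 (NOD/ShiLtJ, clozapine), and the next lowest 1.1ST median was 6.47. Before the comparisons, 3 arrays have to be named, because the members stood apart on them on both formats. In the hindbrain array of mouse BB685 (C57BL/6J, clozapine), the mean of the 9 members differed by -0.27 from the mean of the strain's forebrain, whereas the other hindbrain arrays differed by -1.57 to -0.98 (log2). In the whole brain arrays of BB707 (C57BL/6J, vehicle) and DD656 (NOD/ShiLtJ, vehicle), it differed by -1.01 and -1.34, whereas the other whole brain arrays ran from -0.56 to 0.21. The mean over 9 measured genes of brainstem and midbrain neurons was 7.87 in the BB685 hindbrain, under the 8.25 to 9.01 of the other hindbrain arrays, and 7.88 and 8.36 in the BB707 and DD656 whole brains, above the 6.62 to 7.60 of the other whole brain arrays. The BB685 hindbrain lay within the range of the other hindbrain arrays for thalamic (9.06), hypothalamic (7.36) and oligodendrocyte genes (10.9). Genes of cortical projection neurons did not follow the members in the BB685 hindbrain, where their mean (9 measured genes) was 7.76 within a range of 7.182 to 8.203 over the other hindbrain arrays, but they were low in the whole brains of BB707 (8.87) and DD656 (8.53), against 8.99 to 9.26 in the others. The comparisons of the members are given with these 3 arrays and, where the values moved, without them.

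**Figure D1:**
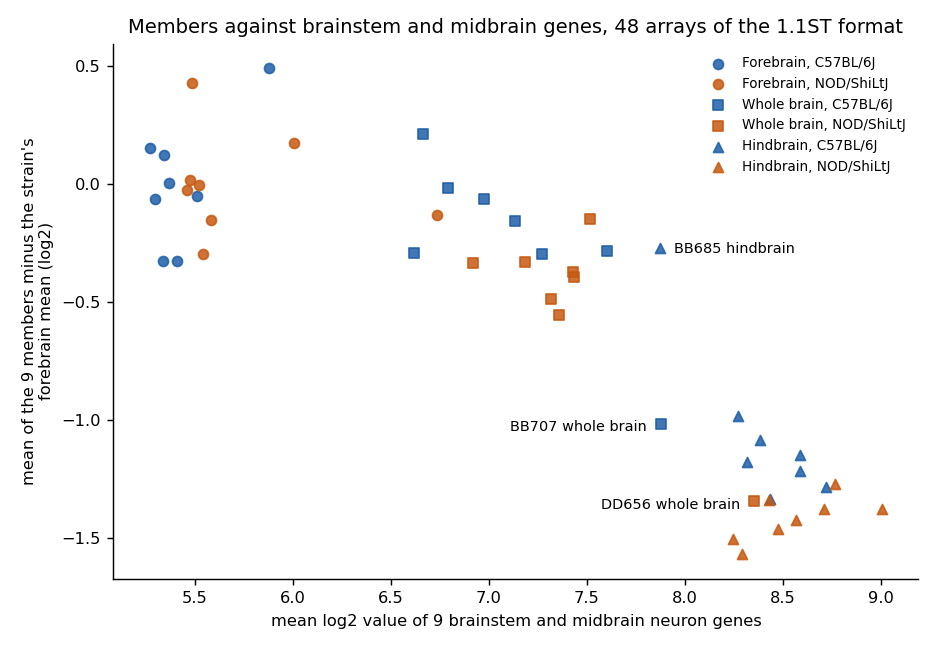
Each point is 1 of the 48 arrays of the 1.1ST format, with the mean log2 value of 9 brainstem and midbrain neuron genes on the x axis and the mean of the 9 members, relative to the forebrain mean of the same strain, on the y axis (log2). Forebrain arrays are circles, whole brain arrays squares and hindbrain arrays triangles, and the 3 labelled arrays, with member means of -0.27, -1.01 and -1.34, lie away from the other arrays of their region. On the x axis, the unlabelled forebrain of DD678 (NOD/ShiLtJ, clozapine) also lies apart, at 6.735 with the next forebrain at 6.006. Its member mean was -0.13.

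The first comparison asked how the members differ between forebrain and hindbrain. All 9 were lower in hindbrain at a false discovery rate (FDR) below 0.05, against 32.5% of all 28310 transcript clusters called lower, and the fold ranged from 1.18 for Gnal to 3.81 for Actn2. The test was limma over all clusters with a mean for each group of region and strain, the treatment as a term and the mouse as a random block, and the FDR follows the formula in the study's methods. In these bulk samples, fewer cells of a type and less RNA per cell cannot be told apart.

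The inhibitor of protein phosphatase 1 came next to Actn2 in the size of its difference. Ppp1r1b ran from 9.24 over a median of 9.92 to 10.43 in the 16 forebrain arrays and from 7.55 over 7.86 to 9.20 in the 16 hindbrain arrays. The groups did not overlap, although the highest hindbrain value, that of BB685, came close to the lowest forebrain value. Ppp1r1b was 3.78-fold lower in hindbrain (log2 difference -1.92, SE 0.13, FDR 6.54e-18), and it was lower in 16 of 16 mice when both samples of a mouse were compared, with differences from -0.71 in BB685 to -2.74 in BB703.

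The cyclic nucleotide phosphodiesterases differed from each other in the size of the fall. Pde10a lay between 10.49 and 11.37 in forebrain, with a median of 10.89, and between 8.98 and 10.50 in hindbrain, with a median of 9.24, and the difference was -1.58 (SE 0.11, FDR 4.40e-18). BB685 was the only hindbrain array above the lowest forebrain array. Without it, the highest hindbrain value of Pde10a was 9.65. Pde1b, whose enzyme is activated by calcium and calmodulin, lay between 10.44 and 11.15 in forebrain, with a median of 10.68, and between 9.88 and 10.56 in hindbrain, with a median of 10.15. Its difference of -0.61 (SE 0.06, FDR 4.13e-13) was smaller than that of Pde10a, and here too BB685 alone overlapped with forebrain.

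Of the enzyme and G protein that make cyclic AMP, Adcy5 differed by -0.99 (SE 0.09, FDR 1.29e-14), from a forebrain median of 9.93, with a range of 9.39 to 10.35, to a hindbrain median of 8.94, with a range of 8.55 to 9.81. Gnal, at chr18:67088298-67226792, had the smallest difference of the 9. Its forebrain arrays ran from 10.15 over a median of 10.60 to 11.04 and its hindbrain arrays from 10.02 over 10.34 to 10.70, and 12 of 16 hindbrain arrays lay above the lowest forebrain array. The difference of -0.24 (SE 0.07, FDR 6.71e-04) passed the test and corresponded to 84.0% of the mean forebrain intensity on the linear scale. Gnal was lower in the hindbrain of 13 of 16 mice and higher in 3, all of C57BL/6J.

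The signalling regulators Rgs9 and Rasd2 differed by -1.70 (SE 0.13, FDR 5.15e-16) and -1.28 (SE 0.09, FDR 1.36e-17). Rgs9 had forebrain values of 9.62 to 10.76 with a median of 10.09, and hindbrain values of 8.05 to 9.99 with a median of 8.31. The BB685 hindbrain held 9.99, well above the second highest hindbrain value of 8.75 and nearly as high as the 10.26 of that mouse's forebrain. Rasd2 had forebrain values of 9.08 to 10.30 with a median of 9.85 and hindbrain values of 8.12 to 9.05 with a median of 8.53, and no arrays of these regions overlapped.

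The transcription factor gene Rarb lay between 8.87 and 10.07 in forebrain, with a median of 9.15, and between 7.84 and 9.26 in hindbrain, with a median of 8.38. The difference was -0.89 (SE 0.11, FDR 6.07e-10), and BB685, at 9.26 in hindbrain and 9.14 in forebrain, was the mouse of 16 whose hindbrain was higher. Actn2, the gene of the spine protein, lay between 8.09 and 9.16 in forebrain, with a median of 8.58, and between 6.33 and 7.68 in hindbrain, with a median of 6.61. Its groups did not overlap, and the difference was -1.93 (SE 0.12, FDR 4.09e-20).

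**Figure D2:**
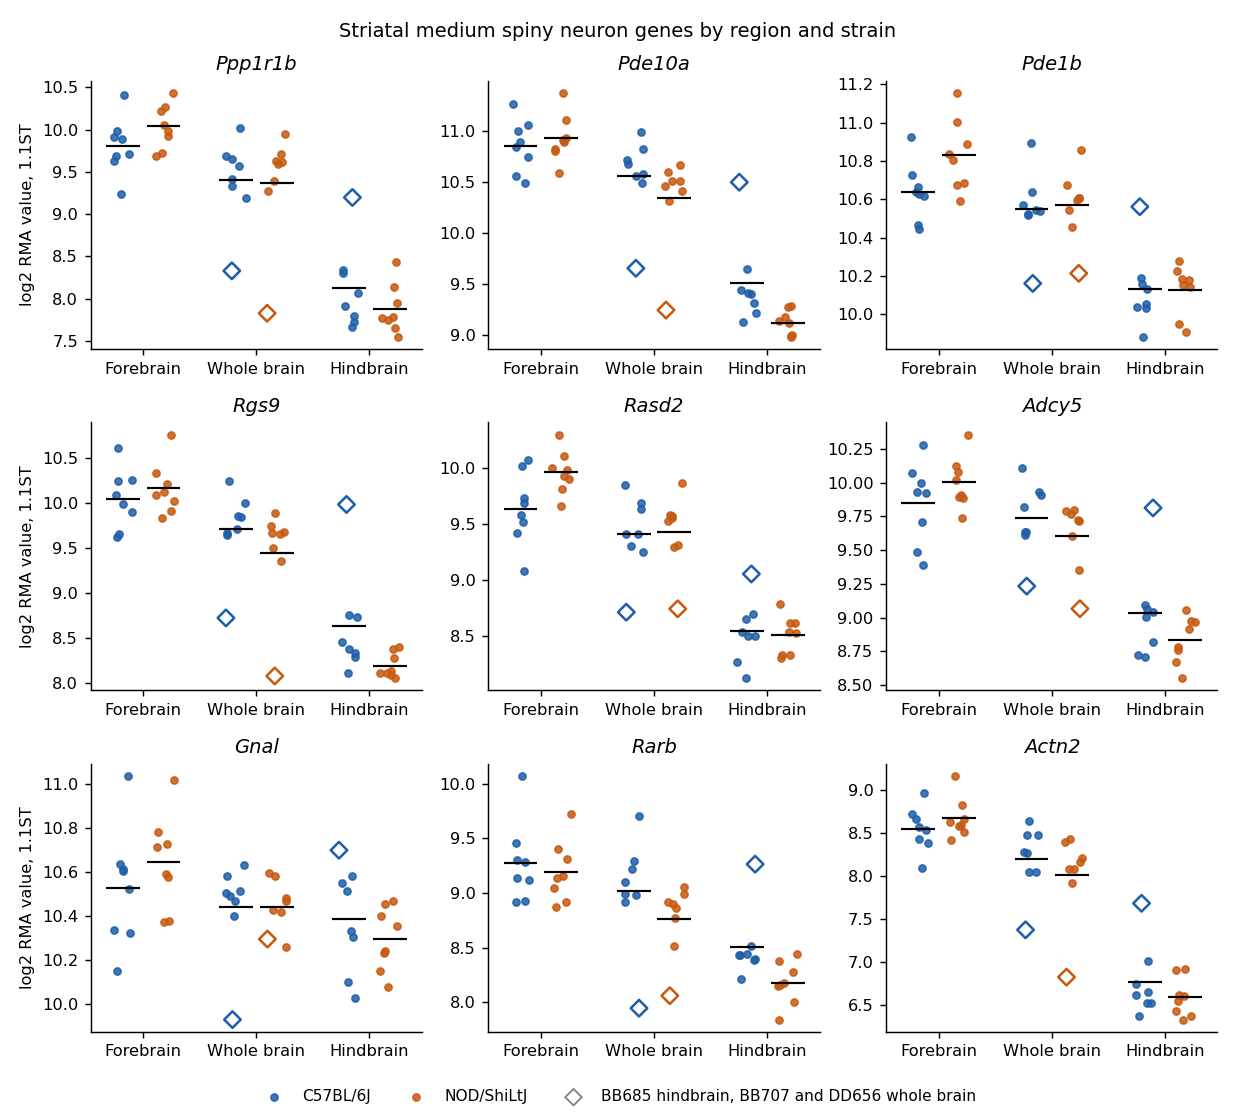
Log2 RMA values of the 9 members on the 48 arrays of the 1.1ST format by region, with C57BL/6J in blue and NOD/ShiLtJ in orange, horizontal lines at the mean of each group of 8 and open diamonds for the BB685 hindbrain and the BB707 and DD656 whole brains. Forebrain and hindbrain arrays do not overlap for Ppp1r1b, Rasd2 and Actn2, overlap through the BB685 hindbrain alone for 5 members and overlap in 12 of 16 hindbrain arrays for Gnal.

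On the linear scale, the mean hindbrain intensity was 26.6% of that in forebrain for Actn2, 27.1% for Ppp1r1b, 32.2% for Rgs9, 34.3% for Pde10a, 41.0% for Rasd2, 50.7% for Adcy5, 53.7% for Rarb and 65.6% for Pde1b, apart from the 84.0% of Gnal. Without the 3 arrays named above, all 9 members were again called lower in hindbrain, against 32.8% of all clusters, with log2 differences from -0.27 (Gnal) to -1.997 (Actn2). The 1.0ST arrays gave smaller differences for every member, from -0.17 (Gnal) to -1.50 (Ppp1r1b), and again called all 9 lower, against 42.8% of all clusters.

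The second comparison set the intact hemisphere against forebrain. Of the 9 members, 8 were lower in whole brain, against 7.65% of all clusters called lower, and Gnal was not called (-0.15, SE 0.07, FDR 0.089). Ppp1r1b ran from 7.83 over a median of 9.58 to 10.02 in whole brain, so that 13 of 16 arrays lay above the lowest forebrain array, and Actn2 ran from 6.82 over 8.18 to 8.64, with 9 of 16 arrays above it. The called differences ran from -0.18 for Pde1b (SE 0.06, FDR 0.019) to -0.53 for Ppp1r1b (SE 0.13, FDR 0.0019). In linear intensity, whole brain held 71.3% of the forebrain mean for Rgs9 and 71.7% for Ppp1r1b, up to 88.5% for Pde1b and 89.7% for Gnal. Individual mice differed: Ppp1r1b was lower in the whole brain of 14 of 16 mice, Rarb of 11 and Pde1b of 11. Without the 3 arrays, 5 members (Ppp1r1b, Pde10a, Rgs9, Rasd2 and Actn2) kept an FDR below 0.05, against 4.51% of all clusters called lower in that fit, with Ppp1r1b at -0.36 (FDR 0.0024), and Pde1b, Adcy5 and Rarb had FDRs of 0.073, 0.058 and 0.061. With 5 surrogate variables, derived here by the procedure of the study's methods, Rasd2 and Actn2 were the 2 that remained, against 4.55% of all clusters. These variables can take up part of the region difference, so that the fitted difference is not the difference between the group means. The 1.0ST arrays called 8 lower, against 6.5% of all clusters, with Gnal among them (-0.18, FDR 0.038) and Adcy5 not (-0.20, FDR 0.066).

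Set against whole brain, hindbrain was lower for 8 of 9 members, against 20.6% of all clusters called lower. The differences of those 8 ran from -0.43 for Pde1b to -1.43 for Actn2 (SE 0.12, FDR 6.81e-15). Gnal differed by -0.10 (SE 0.07, FDR 0.12) and on the 1.0ST arrays by 0.012 (FDR 0.25). Without the 3 arrays, Gnal was called in this comparison (-0.16, FDR 0.019). For 8 members the levels therefore stood in the order forebrain, whole brain, hindbrain with both steps called on 1.1ST arrays, and for the same 5 as above without the 3 arrays. For Gnal, neither step was called with all 1.1ST arrays. The intact hemisphere holds the tissues of both dissected pieces. A whole brain level between theirs therefore follows from the design and is no separate result.

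**Figure D3:**
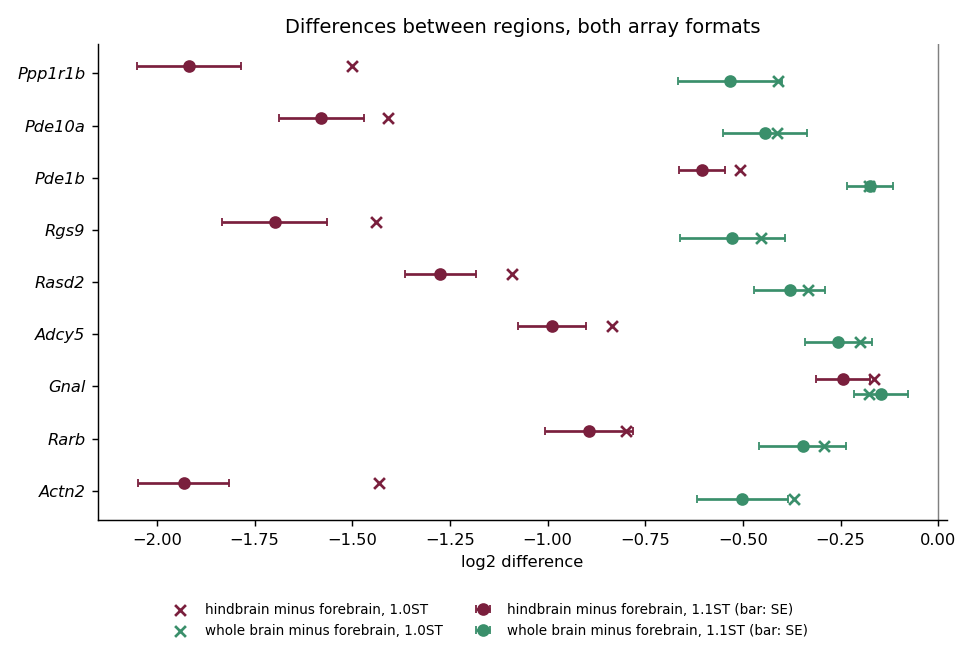
Log2 differences of the 9 members between hindbrain and forebrain (dark red) and between whole brain and forebrain (green), as circles with SE bars for the 1.1ST arrays and crosses for the 1.0ST arrays. All differences lie below 0, and those between hindbrain and forebrain run from -0.24 for Gnal to -1.93 for Actn2 on the 1.1ST arrays.

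Relatives of the members within their gene families did not all move with them between hindbrain and forebrain. Of 23 measured paralogs (of 25 listed), 12 were lower, against 32.5% of all clusters called lower, 8 were higher and 3 were not called. The share of all clusters called higher is not given here. In either direction, limma gave an unadjusted p below 0.05 for 58.6% of all clusters, so the count of 8 is a description. The median log2 difference of the 23 paralogs was -0.11, against -1.28 for the members and -0.01 for all clusters. Gnas, which encodes the stimulatory G protein alpha subunit used in most other tissues, was higher in hindbrain (0.41, SE 0.03, FDR 4.19e-16), whereas its relative Gnal was lower. Among adenylyl cyclases, Adcy1 (-0.96) and Adcy2 (-0.78) were lower in hindbrain like Adcy5 (-0.99), and Adcy7 (1.00) and Adcy8 (0.49) were higher. Pde1a (-1.78) had a larger difference than its relative Pde1b (-0.61) and Pde1c the opposite sign (0.36), and Pde2a (-1.58) was as low as Pde10a (-1.58). Rgs7 (-0.35), Rara (-0.31) and Ppp1r1a (-0.87) had smaller differences than Rgs9, Rarb and Ppp1r1b, and Rasd1, the nearest relative of Rasd2, was not called (0.13, SE 0.10, FDR 0.073). The differences between relatives were not tested as such.

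**Figure D4:**
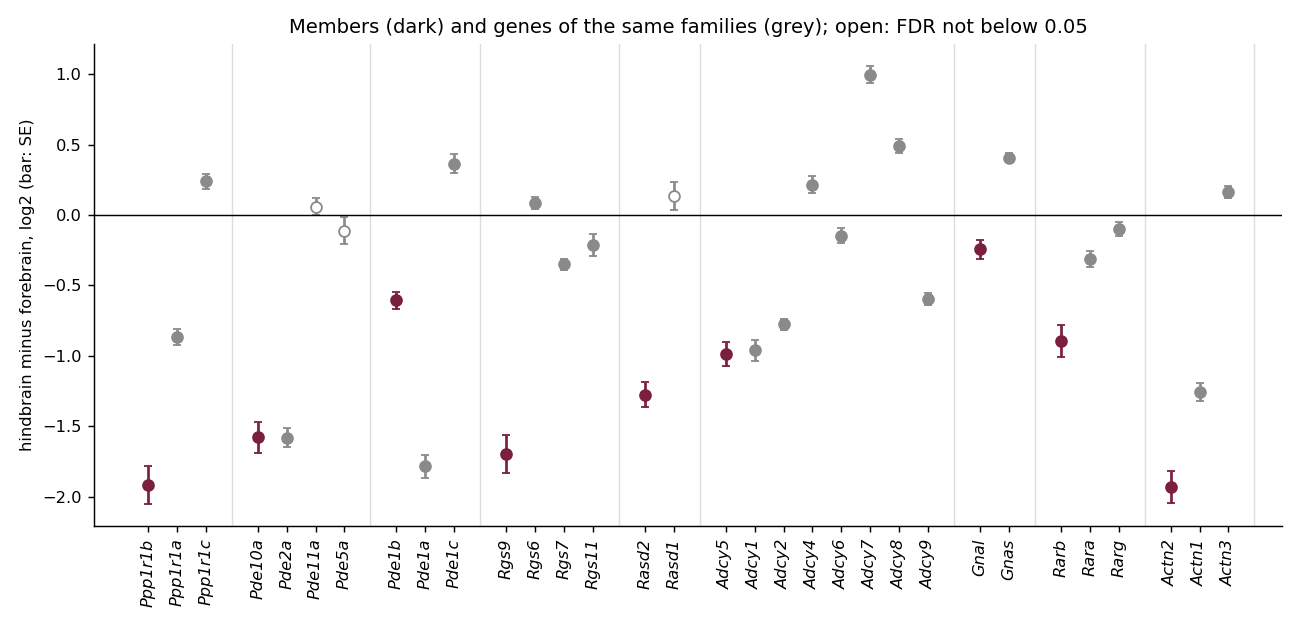
Log2 difference between hindbrain and forebrain, with SE bars, of each member (dark red) and of the measured genes of its family (grey) on the 1.1ST arrays, with open circles for genes not called at an FDR below 0.05. All members lie below 0, whereas 8 called paralogs, among them Gnas and Adcy7, lie above.

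The RNA of signalling partners, listed for their place in the members' signalling and not all direct partners, gave a mixed picture. Of 28 measured signalling partners (of 30 listed), 18 were lower in hindbrain, against 32.5% of all clusters called lower. A further 4 were higher and 6 were not called, and the median was -0.17. The inward rectifier potassium channel gene Kcnj4 (-3.04), the kinase anchoring protein gene Akap5 (-2.10) and Camk2a, the gene of a calcium-dependent kinase (-1.09), had the largest differences. Gnb5, whose protein binds Rgs9, was also lower (-0.32). Of the catalytic subunit genes of protein phosphatase 1, the enzyme that DARPP-32 inhibits, Ppp1ca was lower by a larger difference (-0.36) than Ppp1cc (-0.09), and Ppp1cb was not called (0.03, FDR 0.10). A further 39 genes of medium spiny neurons were listed, chosen like the members with earlier results of these data known, and 37 were measured. Of these, 28 were lower in hindbrain, against the same 32.5%, 4 were higher and 5 were not called, with a median of -0.72. Sh3rf2 (-2.55), the receptor genes Gpr6 (-2.38) and Drd1 (-2.33) and Ankrd63 (-2.23) had the largest differences, Drd2 (-0.70) and the enkephalin gene Penk (-0.72) had smaller ones, and Ebf1 (1.47), the opioid receptor gene Oprm1 (0.73), Foxp2 (0.37) and Isl1 (0.29) were higher in hindbrain. Other cell types moved as well: 9 of 9 measured cortical projection neuron genes were lower in hindbrain (median -1.22). Higher were 9 of 9 brainstem and midbrain (median 3.15), 8 of 8 thalamic (1.33), 6 of 6 hypothalamic (0.98) and 6 of 6 oligodendrocyte genes (0.89). Other lists did not part the regions in this way. The median of the array means was 6.95 in forebrain and 6.92 in hindbrain for olfactory bulb genes. It was 8.27 and 8.35 for striatal interneuron genes, and 7.44 and 6.77 for choroid plexus genes. For each of these lists, the arrays of the regions overlapped. In this comparison, limma gave an unadjusted p below 0.05 for 58.6% of all clusters, in either direction. Without the 3 arrays, the counts of called genes given here were the same except for the signalling partners, of which 17 were lower and 7 not called. The part of these cell types in the members' differences was not tested.

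The strain comparison asked whether the members differ between NOD/ShiLtJ and C57BL/6J. None of the 9 was called in forebrain, against 11.7% of all clusters, none in whole brain, against 10.7%, and none in hindbrain, against 17.2%, by limma at an FDR below 0.05. At an unadjusted p below 0.05, the counts were 2, 0 and 3 of 9, against 21%, 19.4% and 25.7% of all clusters, and the mixed model fitted to each transcript also called 0 in each region. In forebrain, Rasd2 had the largest difference. Its values ran from 9.08 over a median of 9.63 to 10.07 in C57BL/6J and from 9.66 over 9.95 to 10.30 in NOD/ShiLtJ, and the strains overlapped. The difference was 0.32 (SE 0.13, FDR 0.084), and without the 3 arrays, none of them from forebrain, the same difference had an SE of 0.11 and an FDR of 0.029. Pde1b was next in its unadjusted p (0.19 higher in NOD/ShiLtJ, SE 0.08, FDR 0.12).

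In hindbrain, all 9 values were lower in NOD/ShiLtJ, with none called. Pde10a ran from 9.13 over a median of 9.41 to 10.50 in C57BL/6J and from 8.98 over 9.13 to 9.28 in NOD/ShiLtJ (-0.39, SE 0.16, FDR 0.061). Rgs9 differed by -0.44 (SE 0.19, FDR 0.088) and Rarb by -0.33 (SE 0.16, FDR 0.12). Without the 3 arrays these differences were -0.25, -0.25 and -0.22, and that of Pde10a then passed the threshold (FDR 0.046). Of the 9 values, 7 were then lower in NOD/ShiLtJ, and Pde1b (0.06) and Rasd2 (0.03) were on the other side of 0. The dependence of the regional difference on strain, a test of the interaction, had a negative sign for all 9 members, from -0.19 (Pde1b) to -0.55 (Rgs9), that is, toward a larger regional difference in NOD/ShiLtJ. Without the 3 arrays the 9 values ran from -0.13 (Pde1b) to -0.36 (Rgs9), with Rarb at -0.14 and Actn2 at -0.17 in place of -0.25 and -0.31. None was called, against 1.11% of all clusters, with FDRs of 0.42 to 0.73 for the 9, and the mixed model called 0. At an unadjusted p below 0.05 there were 3 members, against 9.87% of all clusters.

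The last comparison asked whether acute clozapine changed the members. Over all regions, with 8 mice per treatment, none of the 9 was called by limma, against 2.23% of all clusters, although all 9 fitted values were higher with clozapine. At a similar FDR, the study's own model, with batch and surrogate variables, found no transcript for clozapine. The 2.23% therefore belongs to the present fit, which had neither. Of the members, 2 had an unadjusted p below 0.05, against 12.9% of all clusters, Ppp1r1b (0.37, SE 0.12, FDR 0.069) and Rgs9 (0.26, SE 0.12, FDR 0.24), and the mixed model and a fit of 1 mean per mouse called 0. The 3 arrays that stood apart weigh on this value, since the low whole brains were of vehicle mice and the high hindbrain of a clozapine mouse. Without them, Ppp1r1b was at 0.21 (FDR 0.17), Rgs9 at 0.09 (FDR 0.56), and Rarb (-0.0074) and Actn2 (-0.00025) turned to the other side of 0.

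In forebrain, which holds the striatum, the clozapine difference averaged over the strains was not called for any member, against 0.0106% of all clusters (3 of 28310), and 0 of 9 had an unadjusted p below 0.05, against 6.04% of all clusters. The mixed model was not fitted to this comparison, and the Benjamini-Hochberg adjustment also called 0. The average joined opposite signs. In C57BL/6J, all 9 members had higher means with clozapine, with differences of 0.19 (Pde1b) to 0.51 (Rgs9), and in NOD/ShiLtJ all 9 had lower means, with differences of -0.10 (Ppp1r1b) to -0.40 (Rarb). The NOD/ShiLtJ values rested in part on 1 vehicle mouse, DD677: without it, 8 of 9 were lower, Ppp1r1b was at 0.01, Rgs9 went from -0.30 to -0.15, and the median of the 9 from -0.22 to -0.13. Without the clozapine mouse BB703, all 9 C57BL/6J values stayed above 0, with a median of 0.27 in place of 0.39 and Rarb at 0.23 in place of 0.42. Rgs9 measured 9.62, 9.66, 9.91 and 9.99 in the C57BL/6J mice given vehicle and 10.09, 10.25, 10.26 and 10.62 in those given clozapine. These groups of 4 did not overlap. In NOD/ShiLtJ, Rgs9 measured 10.02, 10.12, 10.34 and 10.76 with vehicle and 9.84, 9.92, 10.09 and 10.22 with clozapine, and these groups overlapped. Pde10a was the other member without overlap in C57BL/6J forebrain, with vehicle values of 10.49, 10.56, 10.75 and 10.84 and clozapine values of 10.89, 10.99, 11.06 and 11.26. Of all clusters, 1.49% were higher in every clozapine mouse than in every vehicle mouse there.

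The difference between the strains in the forebrain response was tested as an interaction. It was negative for all 9 members, from -0.40 (Pde1b, SE 0.15) to -0.82 (Rarb, SE 0.30), and 7 had an unadjusted p below 0.05, against 7.42% of all clusters. Without DD677 the count at an unadjusted p below 0.05 was 4 and without BB703 it was 5, and all 9 values were negative without any 1 mouse. None was called, against 0% of all clusters, and the FDRs ran from 0.49 (Adcy5 and Rarb) to 0.68 (Ppp1r1b). Each group held 4 mice, and because the members varied together between forebrain samples, their signs are not separate observations. On the 1.0ST arrays, made from the same RNA, the signs were the same for all 9 members in both strains. The member mean was highest in 1 clozapine mouse of C57BL/6J (BB703, 0.49 above the strain's forebrain mean) and in 1 vehicle mouse of NOD/ShiLtJ (DD677, 0.43 above). The mean of the cortical genes in the BB703 forebrain was 9.03, the lowest of the 16 (9.21 to 9.47 in the others). Among the C57BL/6J forebrains, BB703 had the highest means of brainstem and midbrain (5.88), thalamic (7.71) and oligodendrocyte genes (10.36). The same held for choroid plexus (7.76) and striatal interneuron genes (8.64). The part of these means in the clozapine values was not tested. Of the lists compared in the C57BL/6J forebrain, choroid plexus and oligodendrocyte genes alone had means without overlap between treatments. The mean of 8 choroid plexus genes was 7.49 to 7.76 with clozapine and 6.74 to 7.18 with vehicle, and that of 6 oligodendrocyte genes 10.10 to 10.36 and 9.93 to 10.05. All other lists overlapped there, also the further medium spiny neuron genes (8.37 to 8.87 with clozapine, 8.14 to 8.40 with vehicle). In NOD/ShiLtJ all lists overlapped. These means were not tested, nor was their part in the members' values.

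In the other regions, the sign did not follow the strain in the same way. All 9 members had higher means with clozapine in the whole brain of both strains, with medians of 0.31 in C57BL/6J and 0.39 in NOD/ShiLtJ that became 0.10 and 0.11 without the BB707 and DD656 arrays. In hindbrain, all 9 were higher in C57BL/6J and 7 without BB685 (2 on the 1.0ST arrays), whereas in NOD/ShiLtJ 8 were lower and Ppp1r1b alone was higher. Ppp1r1b measured 7.55, 7.65, 7.75 and 7.77 in the NOD/ShiLtJ hindbrains of vehicle mice and 7.79, 7.94, 8.14 and 8.43 in those of clozapine mice, which did not overlap. There, 2.49% of all clusters were higher in every clozapine mouse. Actn2 had the opposite order without overlap in the same hindbrains (difference -0.34, against 2.21% of all clusters lower), and Rasd2 and Gnal were higher without overlap in the whole brain of NOD/ShiLtJ (1.72% of all clusters).

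**Figure D5:**
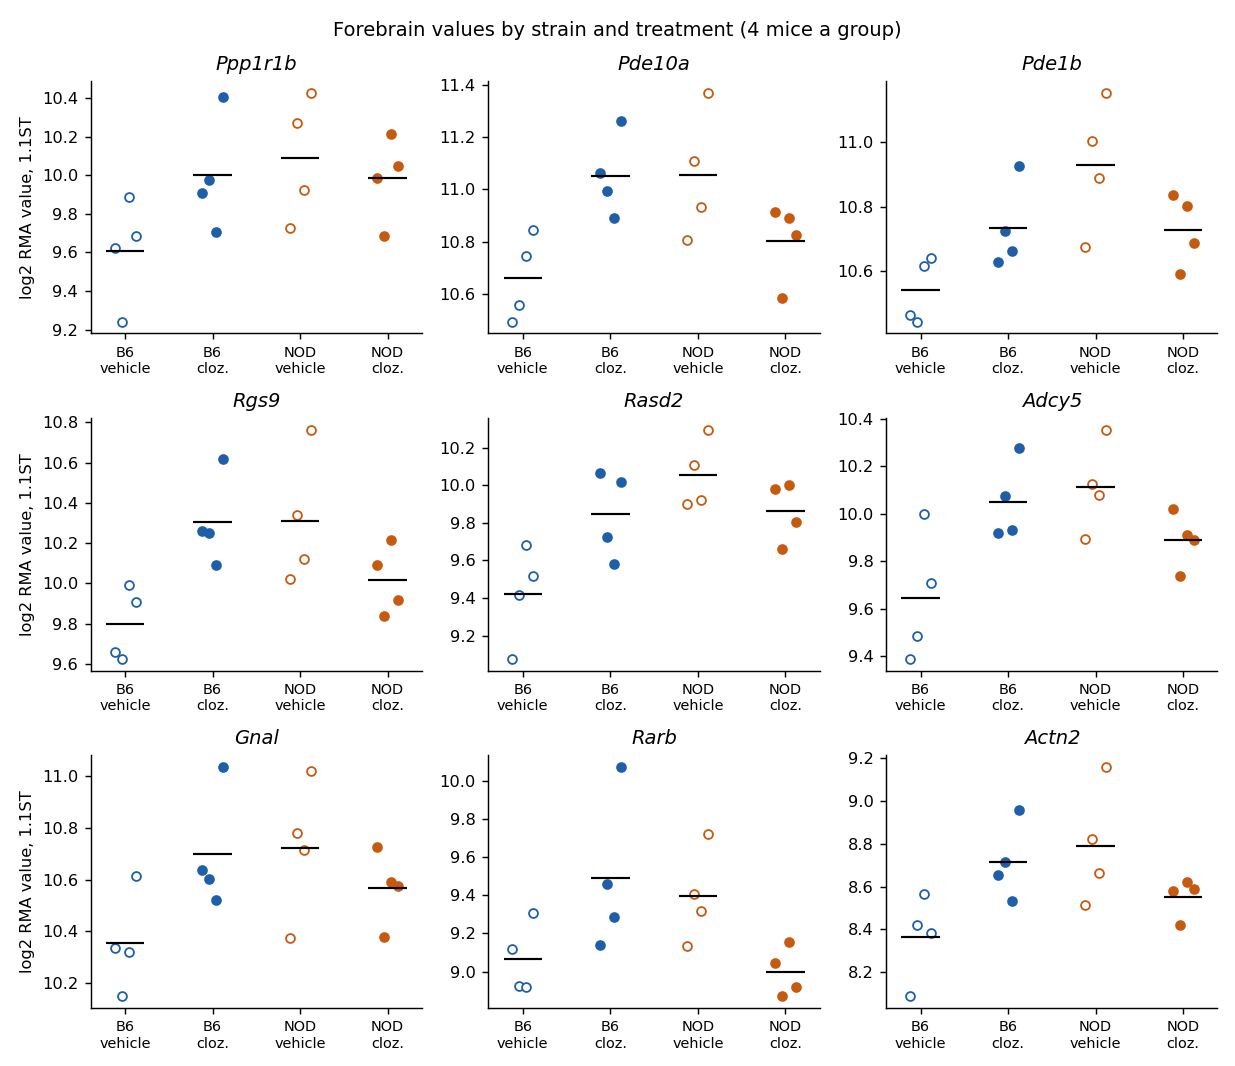
Log2 RMA values of the 9 members in the 16 forebrain arrays of the 1.1ST format by strain (B6, C57BL/6J; NOD, NOD/ShiLtJ) and treatment, with open circles for vehicle, filled circles for clozapine and horizontal lines at the means of 4 mice. Clozapine means lie above vehicle means in C57BL/6J and below them in NOD/ShiLtJ in every panel, and no member was called for this difference between the strains.

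The members varied together between brains. Over the 16 forebrain arrays, after the mean of each strain was subtracted, the 36 pairs of members had Pearson correlations from 0.62 (Rasd2 and Rarb) to 0.97 (Pde10a and Rgs9), with a median of 0.89. Over the 16 whole brain arrays the median was 0.91, and 0.81 without the whole brains of BB707 and DD656. Over the 16 hindbrain arrays it was 0.76, and without BB685 it was 0.39, where Adcy5 and Gnal remained close (0.89) and Ppp1r1b and Gnal were opposed (-0.54). The 1.0ST arrays gave a forebrain median of 0.92. These correlations are descriptions over arrays that share their RNA's dissection and normalization.

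Among 18809 other genes with a cluster of their own, those most like the members over the 48 arrays, by the correlation with the mean of the members' standardized values, were Sh3rf2 (0.97), Drd1 (0.97), Gpr6 (0.97), Smpd3 (0.96), Kcnk2 (0.96), Rxrg (0.96), Gpr83 (0.96), St8sia3 (0.96), Gng7 (0.96) and Cd4 (0.96). Of these 10, 5 stood on the list of medium spiny neuron genes, and 8 were among the 10 without the 3 arrays. Over the 16 forebrain arrays alone, with strain means subtracted, they were Drd2 (0.98), Pde7b (0.96), Rxrg (0.95), Penk (0.94), Mme (0.93), Tbc1d8 (0.93), Gng7 (0.93), Scn4b (0.93), Gpr6 (0.93) and Rasgrp2 (0.92). Of these 10, 8 stood on that list, which held 37 measured genes. Because the list was drawn up with earlier results of these data known, both counts are descriptions and no independent support. Scn4b and Rasgrp2 followed the members within forebrain but not over all regions (0.35 and 0.43 over the 48 arrays) and did not differ at the threshold between hindbrain and forebrain (-0.01 and -0.04). Foxp2, which was higher in hindbrain, likewise had correlations of 0.81 within forebrain and -0.34 over all arrays.

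The same RNA on both formats gave like orders of the arrays for each member. The correlation between formats over the 48 samples was lowest for Gnal (0.92) and highest for Rgs9 (0.99), and within the 16 forebrain samples it ran from 0.938 (Adcy5 and Pde1b) to 0.978 (Rgs9). The standard deviation over the 48 samples was smaller on the 1.0ST arrays for all 9 members, for example 0.67 against 0.90 for Actn2 and 0.74 against 0.93 for Ppp1r1b. Levels were compared only within a format.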

How the data were processed

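RNA of forebrain, whole brain and hindbrain was taken from 16 mice, and each of the 48 samples was hybridized to a 1.1ST and a 1.0ST array. Per the labels and methods, the authors normalized each format with RMA in Affymetrix Expression Console 1.1 and deposited log2 intensities, of which 28310 transcript clusters were used. Array files hold no read depth, and the number of mice limits the precision. Of these clusters, 21207 carried 1 gene symbol, 1867 several and 5236 none.

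Each format was fitted in limma 3.58.1 (R 4.3.3, statmod 1.5.0) over all clusters, with 6 means of region and strain, an additive term for treatment and the mouse as a random block (consensus correlation 0.0388). Clozapine within forebrain and its dependence on strain came from a fit of the 12 groups of region, strain and treatment (0.0295). Tests were two-sided. The FDR is the share of null transcripts, taken as 2 times the share of p-values above 0.5, times the expected number of null p-values at a threshold over the number found. It was called below 0.05 and can lie under the p-value. The mouse number in the labels pairs the samples of 1 animal. Deviations from the group means correlated between samples of a mouse on average by 0.0405 for forebrain with whole brain, by 0.0745 for forebrain with hindbrain, and by -0.0188 for the remaining pair. The 5 surrogate variables were derived here by the study's procedure, from a fit without batch. They were an alternative and not in the main fit, since they can take up part of the region difference. The 1.1ST arrays were run on 2 plates of 24, which the labels do not assign to samples, so no batch term was fitted. Probes over sites that differ between the strains could not be set aside in these summarized values, which bears on the strain comparisons.

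The 9 members were always named. From lists of further striatal genes, signalling partners and paralogs, up to 4 genes in each direction with the largest difference were named, together with relatives and receptors needed to read a result. Genes most like the members were the 10 with the highest Pearson correlation. The members and lists were chosen with earlier results of these data known. The fitting was tested on simulated data. Promoter windows were searched on both strands for the letters given. Alternatives were the other format, surrogate variables, residual principal components, array centring, a minimum mean of 5, other treatments of the mouse, a mixed model for each transcript, Benjamini-Hochberg adjustment and leaving out mice or arrays.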

Additional observations from a re-analysis of the deposited data

Results flagged for a closer look

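Dixon's test was applied to 54 groups of 8 arrays of a region and strain, and 16 values of members lay far from the others of their group. The members were read on the same arrays and varied together, so the 54 groups are not separate observations. The rate of about 1 in 20 that chance flags in separate groups is therefore no measure here. Of the 16 values, 6 were high values of the BB685 hindbrain: Ppp1r1b (9.197), Pde10a (10.5), Pde1b (10.56), Rgs9 (9.986), Adcy5 (9.812) and Rarb (9.265). Another 5 were low values of the BB707 whole brain: Pde10a (9.654), Rgs9 (8.722), Gnal (9.929), Rarb (7.944) and Actn2 (7.37). The DD656 whole brain held 4 low values, in Ppp1r1b (7.828), Pde10a (9.244), Rgs9 (8.076) and Actn2 (6.82). The remaining one was a high value of Rarb in the BB703 forebrain (10.07).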

How the results depend on the processing

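All 9 members were called lower in hindbrain than in forebrain under every alternative fitted, on both formats and without any 1 mouse, and no called difference changed sign. Of the 8 members called lower in whole brain than in forebrain, 2 were called with the 5 refined surrogate variables and 5 without the 3 arrays that stood apart, and leaving out single mice gave 6 (without BB707) to 8. Against the 0 members called for strain in forebrain, 2 were called with the surrogate variables (Rasd2 and Pde1b) and 1 (Rasd2) with residual principal components and without the 3 arrays, and single mice left out gave 0 to 1 (without BB685). For strain in hindbrain, where 0 were called, 2 were called with residual principal components and without the DD656 whole brain array (Pde10a and Rgs9), and 1 (Pde10a) among clusters with a mean above 5 and without the 3 arrays. Single mice left out gave 0 to 1 there (1 without DD656, DD677 or BB701). For clozapine over all regions, where 0 were called, 1 (Ppp1r1b) was called with residual principal components and with no replicate block, and single mice left out gave 0 to 1 (without DD675). The cause was not tested.

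With the mouse as a fixed replicate block, the counts were 9 for hindbrain against forebrain, 8 for whole brain against forebrain, 8 for hindbrain against whole brain and 0 for the strain dependence, and, apart from Ppp1r1b with clozapine, the treatment of the block changed no call. The mixed model was not run for the 2 forebrain clozapine comparisons, and the choice of cluster changed nothing, since each member had 1. The omission of arrays that stood apart was chosen after seeing the data.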
